A study of Mus musculus with 6 samples.

Results

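The genes described here are 10 members of the prostaglandin pathway (*Pla2g4a*, *Ptgs1*, *Ptgs2*, *Ptges*, *Ptgis*, *Hpgd*, *Ptger2*, *Ptger4*, *Ptgfr* and *Ppard*), chosen by name for their part in synthesis, breakdown or reception of prostaglandins. They are 10 of the 23420 genes in the count tables, and all 10 were found there. RNA was sequenced from the laser-microdissected luminal layer of the mouse uterus and from blastocysts flushed from uterine horns, both taken on day 4 of pregnancy at 8 pm, before embryos attach. The luminal groups were *Lif*-floxed/floxed females given PBS (control), *Lif*-floxed/floxed *Ltf*-Cre/+ females given PBS (eKO), and females of this second genotype given recombinant Lif (rLif). The rLif dose was 20 µg per head at 10 am and 6 pm, with dissection 2 h after the last injection. The names control, eKO and rLif are used below for the 3 groups, and a comparison is written as a quotient, such as rLif/eKO. Blastocysts came from uteri of the same 3 kinds, and all were themselves labelled *Lif*-floxed/+, with PBS, PBS and rLif as the treatments of the mothers. *Ltf*-Cre acts in the uterine epithelium, under the lactoferrin promoter, so the deletion was not directed at the stroma. Each of the 6 groups was 1 library made from pooled animals or embryos, so no value below has a replicate check and no p-value is given.

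Prostaglandins are lipid signals made from arachidonic acid. Phospholipases free the fatty acid from membranes, cyclooxygenases turn it into an unstable intermediate, and terminal synthases make the separate prostaglandins, which act on cell surface receptors until they are oxidised. In the uterus the pathway is known for its part in implantation, where vascular permeability rises around the attaching blastocyst and the stroma decidualises.

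Libraries held between 18996158 and 28460465 counts. Counts of the targeted gene did not follow the luminal labels. *Lif* had 0 counts in the control-labelled luminal library, 28 in the eKO-labelled one and 0 in the rLif-labelled one, and it had 1447, 1736 and 1250 counts in blastocysts. The 28 counts are 0.975 CPM (counts relative to the scaled library size), in a layer that is not the known source of uterine *Lif* at this time, which is the glands. In the paper's design the loxP sites flank only part of *Lif*, and whole-gene counts do not separate reads of the part that remains. Luminal libraries are therefore called by their labels throughout. Whether luminal libraries were exchanged was not tested, and an exchange would change what each luminal ratio compares. All 8 luminal epithelium markers had counts in the 3 luminal libraries and summed to 9582 to 11840 CPM. Of the blastocyst lists, the 5 trophectoderm genes summed to 5.64 to 11.3 CPM there and the 4 inner cell mass genes to 10.2 to 34.1 CPM. In the latter list *Pou5f1* and *Nanog* had 0 counts, whereas *Klf2* had 852, 484 and 266 in control, eKO and rLif. The 4 primitive endoderm genes summed to 1145 to 2595 CPM, most of it *Sox17*, with 27110, 48998 and 65587 counts. Stromal markers, summed, gave 740 to 1155 CPM and immune markers 949 to 1095 CPM. Transcripts of other uterine cells were thus present, and in such bulk samples, fewer cells of a type and less RNA per cell cannot be told apart. In blastocysts all 5 trophectoderm and all 4 inner cell mass markers had counts. Of the 8 luminal epithelium genes, *Wnt7a* had 0 counts in all 3 blastocyst libraries. The other 7 had counts in each, and the list summed to 6911 to 7351 CPM.

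To show the sequence around the starts of the members that the results turn on, the 250 bases before the RefSeq start (GRCm38.p6) are given 5′ to 3′ for 4 of them. These are *Pla2g4a* and *Ptger2*, the members called for eKO/control in the luminal layer, *Ptger4*, which was low in both tissues after rLif, and *Ptges*, the most abundant member in blastocysts. The windows are chr1:149961291-149961540 (minus strand) for *Pla2g4a*, chr14:44987861-44988110 (plus strand) for *Ptger2*, chr15:5244188-5244437 (minus strand) for *Ptger4* and chr2:30903298-30903547 (minus strand) for *Ptges*. Capitals mark GGGCGG or its reverse complement, of which the first 2 windows hold none.
Pla2g4a: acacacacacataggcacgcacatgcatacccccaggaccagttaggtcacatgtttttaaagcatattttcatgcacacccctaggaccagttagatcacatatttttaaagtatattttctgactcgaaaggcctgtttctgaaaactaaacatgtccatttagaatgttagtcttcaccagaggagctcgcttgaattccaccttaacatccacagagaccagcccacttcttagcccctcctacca
Ptger2: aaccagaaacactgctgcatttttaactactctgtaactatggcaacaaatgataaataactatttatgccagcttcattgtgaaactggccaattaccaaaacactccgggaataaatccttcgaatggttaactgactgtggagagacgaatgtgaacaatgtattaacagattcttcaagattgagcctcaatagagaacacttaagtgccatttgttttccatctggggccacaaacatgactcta
Ptger4: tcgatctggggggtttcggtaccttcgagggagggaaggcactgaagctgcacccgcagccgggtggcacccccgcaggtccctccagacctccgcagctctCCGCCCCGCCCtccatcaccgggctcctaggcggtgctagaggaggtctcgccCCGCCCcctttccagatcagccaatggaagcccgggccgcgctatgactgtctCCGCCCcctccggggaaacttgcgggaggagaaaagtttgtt
Ptges: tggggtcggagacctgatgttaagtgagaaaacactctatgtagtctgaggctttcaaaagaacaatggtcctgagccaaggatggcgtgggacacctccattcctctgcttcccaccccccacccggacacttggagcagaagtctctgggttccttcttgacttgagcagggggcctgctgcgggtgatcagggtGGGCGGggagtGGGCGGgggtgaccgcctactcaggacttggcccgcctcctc

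The windows of *Pla2g4a* and *Ptger2* had a GC content of 43.2% and 38.0%, against 66.8% for *Ptger4* and 59.6% for *Ptges*. Of the 10 members, 9 had an entry in the promoter table, and *Ptgis* is named only. *Pla2g4a* had a second RefSeq start 38845 bases from the first exon base of the count table, and the first start lay 6 bases from it. The start of *Ptger4* lay 356 bases from the first exon base of the count table and that of *Ptger2* at 0 bases. The letters GGGCGG were present on either strand in 6 of the 9 members (*Hpgd*, *Ppard*, *Ptger4*, *Ptges*, *Ptgfr* and *Ptgs2*) and in 32.7% of all 32851 promoter windows of this length. *Ptger4* held 4 matches, of which 2 share a base, and *Ptges* held 2. TATAAA was found before the second start of *Pla2g4a* alone, against 12.4% of all windows. The letters TTCNNNGAA, the pattern to which Stat factors bind, were in 0 members and 7.02% of all windows, and TGACGTCA, the cyclic AMP response element, in 0 members and 1.55%. These are descriptions of letters in a short window.

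The level of each member per length of transcript differed widely between the tissues. Levels are given as TPM (counts divided by exon length and scaled to the same sum in each library), with exact Poisson 95% intervals that cover counting error only, since reads without molecular identifiers are not independent molecules. In the control-labelled luminal library the order from the highest was *Ptger2* (475 TPM), *Ptgs1* (78.4), *Pla2g4a* (54.7), *Ptger4* (47.8), *Hpgd* (7.30), *Ptges* (3.82), *Ptgs2* (2.51), *Ptgis* (1.43), *Ppard* (0.970) and *Ptgfr* (0.377). *Ptgis* and *Ppard* were the only neighbours in this order whose intervals overlapped. *Ptger2* lay above 97.7% of the 15694 genes analysed in the luminal layer. In control blastocysts the order was led by *Ptges* (364 TPM, above 96.6% of 14873 genes), then *Hpgd* (28.0), *Ptgis* (17.2), *Ppard* (7.96), *Ptgs1* (2.23), *Ptger4* (1.15), *Ptger2* (0.470) and *Pla2g4a* (0.0830). *Ptgs2* and *Ptgfr* had 0 counts there, and the intervals of the last 5 of the 10 overlapped from each to the next.

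**Figure D1:**
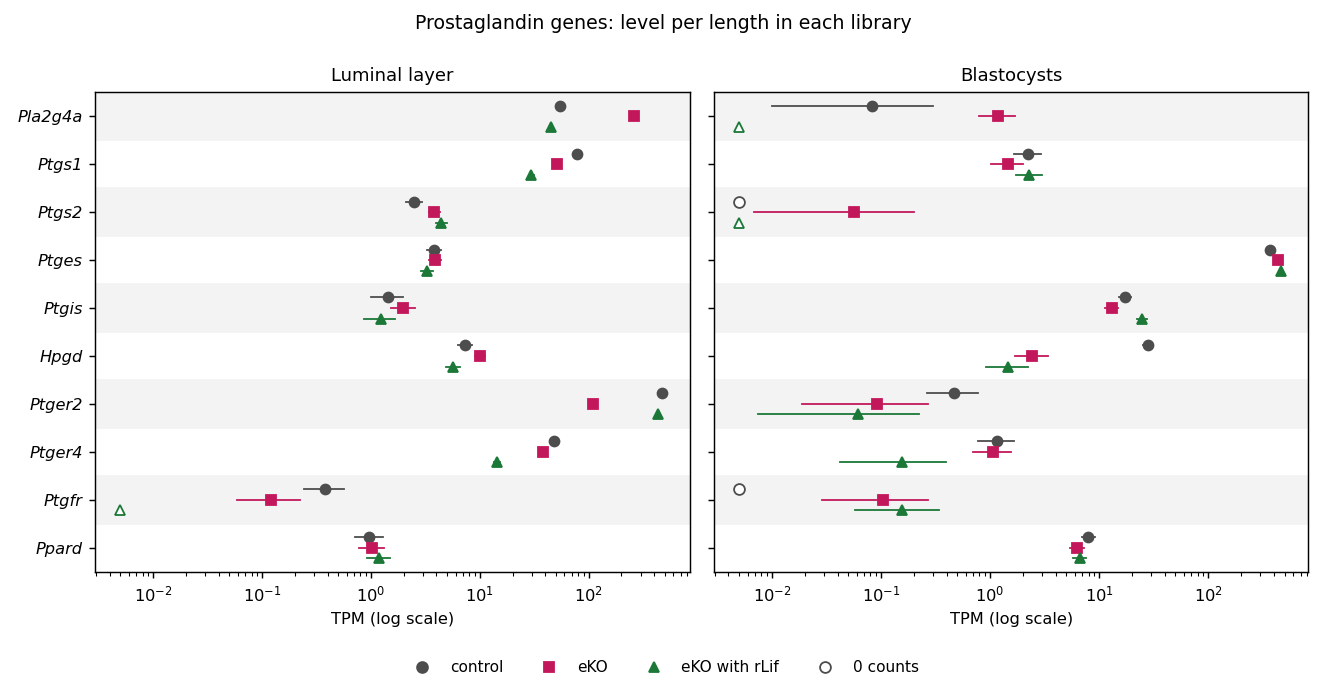
Level per length of each member (TPM, log scale) in the luminal libraries (left) and the blastocyst libraries (right), 1 point per library labelled control, eKO or eKO with rLif (rLif in the text). Lines are exact Poisson 95% intervals and open symbols at the left edge are libraries with 0 counts. *Ptger2*, *Ptgs1*, *Pla2g4a* and *Ptger4* stood high on the left and low on the right, and *Ptges*, *Ptgis* and *Ppard* the reverse.

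A gene was called when the exact 95% Clopper-Pearson interval of the ratio of 2 libraries was wholly above 1 or wholly below -1 on the log2 scale, among genes whose counts over the libraries of the comparison's tissue or tissues reached 10. Between the libraries labelled control of the 2 tissues, all 10 members were called, 6 higher in the luminal layer and 4 higher in blastocysts. Of all 17081 genes 52.1% were called in this comparison, 27.0% higher and 25.1% lower in the luminal layer. The 3 luminal levels did not overlap the 3 blastocyst levels for 8 of the 10 members, 5 above and 3 below, close to the 73.4% of all genes (28.0% above and 45.4% below). *Hpgd* and *Ptgfr* were the members that overlapped. Tissue and way of collection cannot be told apart in this comparison.

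Of the 10 members, those higher in the luminal layer were the cyclooxygenases, the phospholipase and the surface receptors. Other pathway genes, from the list of 40 given below, did not divide by role in this way. Of 11 for arachidonic acid release, 0 were called higher and 4 lower in the luminal layer (median log2 ratio -0.91). Of 5 surface receptors, 1 was called higher and 1 lower. Over the 38 assessed, 9 were called higher and 11 lower, against 27.0% and 25.1% of all genes. *Ptger2*, which encodes the prostaglandin E receptor EP2, had 25819 counts in the control-labelled luminal library and 15 in control blastocysts, a log2 ratio of 10.49 (interval 9.77 to 11.33). *Pla2g4a* had 2245 and 2 counts (log2 ratio 9.88, interval 8.02 to 12.92), *Ptger4* 2043 and 29 (5.88) and *Ptgs1* 3240 and 54 (5.65). *Ptgs2* had 150 counts against 0, at least 41.9-fold higher in the luminal library, and *Ptgfr* had 24 against 0, at least 6.70-fold higher. Folds against a library at 0 are written as at least a value, computed with a floor of 3 counts in that library. They leave out counting error and are not limits of the counting interval.

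Members higher in blastocysts included both terminal synthases. *Ptges* encodes the inducible microsomal prostaglandin E synthase. It had 11247 counts in control blastocysts against 201 in the control-labelled luminal library, a log2 ratio of -6.06 for luminal against blastocyst (interval -6.27 to -5.86). *Ptgis*, which encodes prostacyclin synthase, had 255 and 36 counts (-3.08), and *Ppard*, a nuclear receptor for which prostacyclin has been proposed as a ligand, had 217 and 45 (-2.53). *Hpgd* was closest of the 10, with 408 and 181 counts (-1.43, interval -1.69 to -1.17). Beside these synthases both cyclooxygenases were rare in blastocysts, with 54, 36 and 57 counts of *Ptgs1* and 0, 2 and 0 of *Ptgs2* in control, eKO and rLif blastocysts.

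Within the luminal layer, *Pla2g4a* was higher and *Ptger2* lower in the eKO-labelled library than in the control-labelled one, and both were close to control in the rLif-labelled library. By its labels, the comparison addressed the deletion of *Lif* from the uterine epithelium, with the limit on those labels given above. The 2 members were the only ones called of 10, in a comparison where 17.2% of all genes were called (8.08% higher and 9.15% lower in eKO). The median log2 ratio of the 10 members was 0.23, against 0.00 over all genes.

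*Pla2g4a* (GRCm38/mm10 chromosome 1, 149829622 to 149961284, minus strand, protein coding) encodes the cytosolic phospholipase A2 that frees arachidonic acid. It had 2245 counts in the control-labelled luminal library, 13689 in the eKO-labelled one and 2333 in the rLif-labelled one, or 54.7, 260 and 45.2 TPM. The library labelled eKO stood alone, and the other levels had intervals of 52.5 to 57.0 and 43.3 to 47.0 TPM. At the TMM-scaled library sizes, which TPM does not use, the log2 ratio was 2.42 for eKO/control (interval 2.36 to 2.49), -2.41 for rLif/eKO (interval -2.48 to -2.35) and 0.01 for rLif/control (interval -0.07 to 0.10). The order of members changed with it, since *Pla2g4a* had the highest level of the 10 in the eKO-labelled library and *Ptger2* in the other luminal libraries.

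*Ptger2* (chromosome 14, 44988111 to 45003820, plus strand, a protein-coding gene) had 25819 counts in the control-labelled luminal library, 7674 in the eKO-labelled one and 29937 in the rLif-labelled one. Its levels were 475, 110 and 438 TPM, low in the eKO-labelled library and high in the others. The log2 ratio was -1.94 for eKO/control (interval -1.97 to -1.90), 2.11 for rLif/eKO (interval 2.07 to 2.14) and 0.17 for rLif/control (interval 0.15 to 0.19). Even in the eKO-labelled library, *Ptger2* lay above 90.8% of the genes analysed. Its eKO/control call was lost in edgeR's exact test with an assumed dispersion of 0.1, a spread that these libraries cannot give, and its rLif/eKO call and both of *Pla2g4a* were kept.

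Markers of other cells moved with these genes in part. The summed glandular epithelium list, of which 6 of 7 genes were in the tables, was 117 CPM in the control-labelled luminal library, 17.9 in the eKO-labelled one and 170 in the rLif-labelled one. Most of the sum in the control- and rLif-labelled libraries was *Lgr5*, with 2505, 25 and 3494 counts in the 3 libraries. Without it the other 5 genes summed to 17.4, 17.1 and 35.6 CPM. Of the 6 genes, 5 were lowest in the eKO-labelled library (*Foxa2* had only 3, 0 and 10 counts), and *Spink3* was highest there, with 81, 207 and 127. The summed level of the 9 stromal genes was 740, 1155 and 799 CPM, all 9 had counts in each library, and 7 were highest in the eKO-labelled one. The part of these cell types in the *Ptger2* and *Pla2g4a* ratios was not tested.

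**Figure D2:**
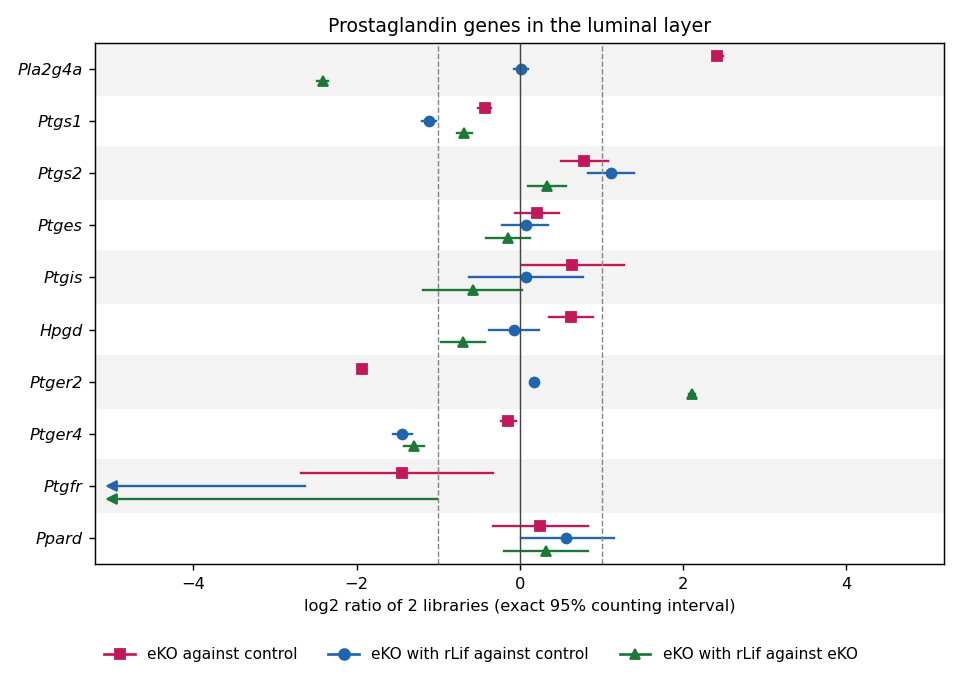
log2 ratios of the members between luminal libraries, called by their labels, with exact 95% counting intervals (lines) for the 3 comparisons. Dashed lines mark log2 ratios of 1 and -1, and arrows mark intervals open towards a library with 0 counts. *Pla2g4a* and *Ptger2* lay on opposite sides, at 2.42 and -1.94 for eKO/control and at -2.41 and 2.11 for rLif/eKO.

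For rLif/control, 3 members were called, *Ptgs1*, *Ptger4* and *Ptgfr*, all lower with rLif. Over all genes 9.16% were called here, 4.12% as higher and 5.04% as lower. For rLif/eKO, 4 members were called, *Ptger2* higher and *Pla2g4a*, *Ptger4* and *Ptgfr* lower with rLif, against 15.6% of all genes (7.88% higher and 7.77% lower). The median log2 ratios of the 10 members were 0.04 and -0.63, against 0.01 and -0.01 over all genes. The 3 luminal comparisons share libraries and are not independent. In edgeR's exact test with the same assumed dispersion, *Ptgfr* for rLif/control, *Pla2g4a* and *Ptger2* were kept, and the calls of *Ptgs1*, *Ptger4* and rLif/eKO *Ptgfr* were lost.

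*Ptgs1* (chromosome 2, 36230426 to 36252269, plus strand, protein coding) encodes the cyclooxygenase that many tissues make without a stimulus. It had 3240, 2732 and 1543 counts in the control-, eKO- and rLif-labelled luminal libraries, or 78.4, 51.5 and 29.7 TPM. The library labelled control was the highest and the rLif-labelled one the lowest. The log2 ratio was -0.43 for eKO/control (interval -0.51 to -0.36), -0.68 for rLif/eKO and -1.11 for rLif/control (interval -1.20 to -1.03).

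The other cyclooxygenase gene, *Ptgs2* (chromosome 1, 150100124 to 150108012, plus strand, protein coding), is the inducible form and a marker of embryo attachment. Its levels ran opposite to those of *Ptgs1*, at 2.51, 3.83 and 4.45 TPM. Its rLif/control log2 ratio of 1.11 was not called (interval 0.83 to 1.40). *Ptgs2* was thus a small part of the cyclooxygenase transcripts, and the part differed between libraries. Its level per length was 0.0320 of that of *Ptgs1* in the control-labelled luminal library (interval 0.0270 to 0.0377), 0.0744 in the eKO-labelled one (0.0657 to 0.0839) and 0.150 in the rLif-labelled one (0.133 to 0.169). The 3 intervals did not overlap, and *Ptgs1* remained the more abundant in each library.

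*Ptger4* (chromosome 15, 5233404 to 5243831, minus strand, protein coding) encodes the prostaglandin E receptor EP4, which like EP2 raises cyclic AMP. It had 2043, 2109 and 779 counts in the control-, eKO- and rLif-labelled luminal libraries, or 47.8, 38.4 and 14.5 TPM. The library labelled rLif was low and the others were close, with a log2 ratio of -0.14 between them. Against control the rLif library had a log2 ratio of -1.44 (interval -1.56 to -1.32), and against eKO one of -1.30 (interval -1.42 to -1.18). Since *Ptger2* and *Ptger4* differed in different libraries, the level of *Ptger2* per length was 9.95 times that of *Ptger4* in the control-labelled library (interval 9.51 to 10.4), 2.86 times in the eKO-labelled one (2.73 to 3.01) and 30.3 times in the rLif-labelled one (28.2 to 32.5).

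*Ptgfr* (chromosome 3, 151798610 to 151837528, minus strand, protein coding) encodes the prostaglandin F receptor. It was rare in the luminal layer, with 24, 10 and 0 counts in the control-, eKO- and rLif-labelled libraries. By the floor of 3 counts, the last was at least 8.25-fold lower than control and at least 3.02-fold lower than eKO. The eKO/control log2 ratio was not called (interval -2.68 to -0.33). Smooth muscle markers had the same order, with a summed level of 70.4, 50.5 and 31.4 CPM over 6 genes, all with counts in each library and 4 of them in this order. *Ptgs1* also followed this order, and the part of muscle in either gene was not tested.

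The remaining members were not called in any luminal comparison. *Hpgd*, which encodes the dehydrogenase that begins the breakdown of prostaglandins, had 181, 319 and 178 counts in the control-, eKO- and rLif-labelled luminal libraries (7.30, 10.0 and 5.70 TPM). It was highest in the eKO-labelled library, with a log2 ratio of 0.63 against control (interval 0.36 to 0.90). *Ptges* had 201, 264 and 217 counts, with 3 intervals of the ratio that each included 0. *Ptgis* had 36, 64 and 39 counts, with an eKO/control log2 ratio of 0.64 (interval 0.03 to 1.28), and *Ppard* had 45, 61 and 69. At these counts, log2 differences of the size seen for *Ppard* (0.25 for eKO/control, interval -0.33 to 0.84) were not separable from counting error.

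Other genes of the pathway were examined from a list of 40, of which 39 were in the tables and 33 had enough counts in the luminal layer. For eKO/control, 5 of the 33 were called higher and 2 lower, with a median log2 ratio of -0.06. For rLif/control the numbers were 2 and 5 (median -0.14), and for rLif/eKO 4 and 4 (median -0.24). These shares of called genes may be read against the 17.2%, 9.16% and 15.6% given above.

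Genes of 2 secreted phospholipases were high where *Pla2g4a* was high. *Pla2g10* had 2419, 30642 and 7200 counts in the control-, eKO- and rLif-labelled luminal libraries, a log2 ratio of 3.48 for eKO/control (interval 3.42 to 3.54). It remained above control with rLif (log2 ratio 1.53). *Pla2g5* had 119, 706 and 118 counts, with a log2 ratio of 2.38 for eKO/control and -2.44 for rLif/eKO. In contrast *Mgll*, which encodes monoacylglycerol lipase, another source of arachidonic acid, had 1779, 962 and 471 counts, and *Pla2g4b* had 108, 69 and 32. Both were called lower in rLif/control, at log2 ratios of -1.96 and -1.80. Another secreted phospholipase gene of the list, *Pla2g12a*, was lowest in the eKO-labelled library, with 2295, 1304 and 1534 counts. It was not called in any luminal comparison.

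Of the prostaglandin D genes, *Hpgds* and *Ptgdr* were low in the eKO-labelled library, as was *Ptger2*. *Hpgds*, the hematopoietic prostaglandin D synthase, had 556, 86 and 603 counts in the control-, eKO- and rLif-labelled luminal libraries, a log2 ratio of -2.88 for eKO/control and 2.95 for rLif/eKO. The prostaglandin D receptor gene *Ptgdr* had 364, 0 and 53 counts. With the floor of 3 counts, *Ptgdr* was at least 138-fold lower in the eKO-labelled library than in control. The rLif-labelled one was at least 19.5-fold above eKO by the same floor, but below control (log2 ratio -2.82). *Ptgds*, the other prostaglandin D synthase, was rare and went the opposite way with 2, 50 and 15 counts (log2 ratio 4.46 for eKO/control, interval 2.53 to 7.54). The summed immune list, of which 7 of 8 genes were in the tables, was 1095, 949 and 1075 CPM, and all 7 had counts in each library. Its part in these ratios was not tested.

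Some of these genes are neighbours. *Ptgdr* and *Ptger2* lie 128735 bases apart on chromosome 14 with 1 gene of the tables between them, and both were low in the eKO-labelled library. *Pla2g4a* and *Ptgs2* lie 138839 bases apart on chromosome 1, also with 1 gene between them, and they differed in which luminal library was highest. No exon of the 10 members overlapped an exon of another gene in the tables.

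Breakdown and accessory genes made up most of the rest. *Ptgr1*, a prostaglandin reductase, had 781, 3435 and 1026 counts in the control-, eKO- and rLif-labelled luminal libraries (log2 ratio 1.95 for eKO/control, -1.60 for rLif/eKO). *Zadh2*, a reductase of the same kind, had 718, 365 and 951 counts and was called higher in rLif/eKO (1.52). *Anxa1*, which encodes annexin A1, an inhibitor of phospholipase A2, had 6899, 19796 and 8972 counts, with a log2 ratio of 1.33 for eKO/control. *Lpar3*, a lysophosphatidic acid receptor known to act upstream of uterine cyclooxygenase, had 8033, 14589 and 6327 counts and was called lower in rLif/eKO (-1.06). *Ptgfrn*, which encodes a negative regulator of the prostaglandin F receptor, had 922, 884 and 2117 counts and was called higher with rLif in both comparisons (1.15 against control, 1.40 against eKO). The nuclear receptor genes *Rxrb* and *Ppara* were called lower in rLif/control, at -1.15 and -1.96.

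**Figure D3:**
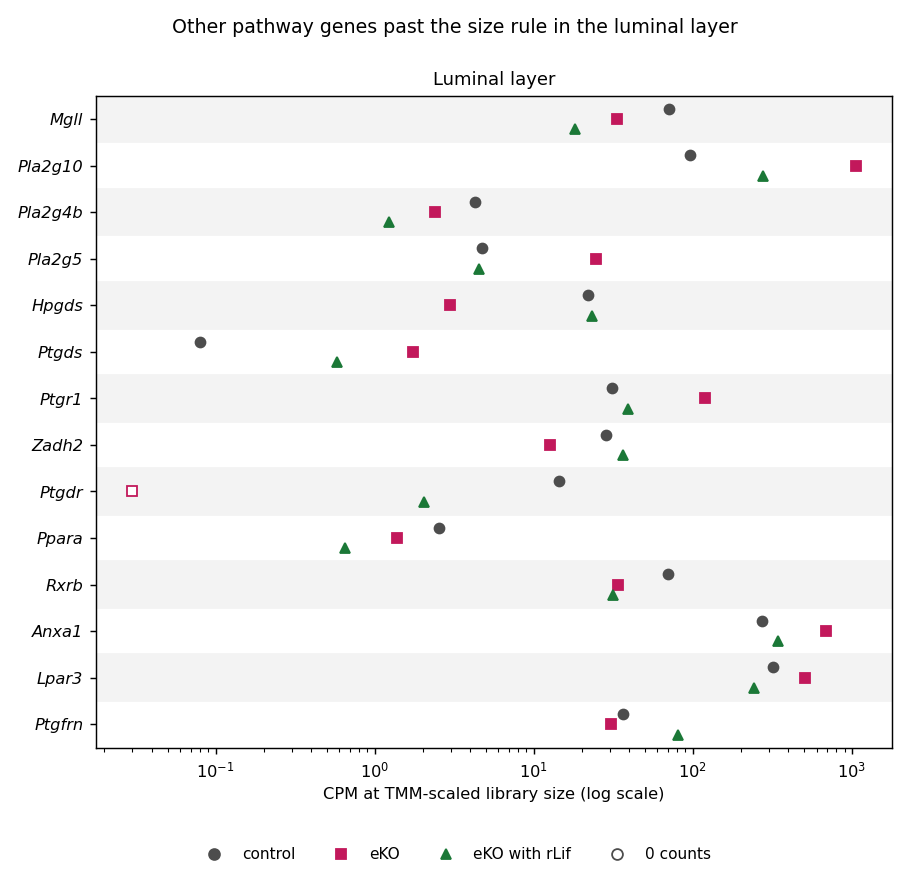
Levels of the 14 other pathway genes called in at least 1 luminal comparison, in CPM at the scaled library size (log scale), 1 point per library, called by its label. The open symbol marks 0 counts. *Pla2g10*, *Pla2g5*, *Ptgr1* and *Anxa1* were highest in the eKO-labelled library, where *Hpgds* and *Ptgdr* were lowest.

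In blastocysts, *Hpgd* was the most abundant member to be called, and it was high in control alone. Of the 10 members, 9 had at least 10 counts summed over the 3 libraries, *Ptgs2* being the exception. For eKO/control, 2 of the 9 were called, *Hpgd* lower and *Pla2g4a* higher, where 3.15% of all genes were called (1.29% higher and 1.86% lower). For rLif/control, 2 were called, *Hpgd* and *Ptger4*, both lower, against 4.94% of all genes (0.948% higher and 3.99% lower). For rLif/eKO, 2 were called, *Pla2g4a* and *Ptger4*, both lower, against 3.75% (0.914% higher and 2.83% lower). The members' median log2 ratios were -0.35, -0.10 and 0.10, against 0.00, -0.01 and -0.01 over all genes.

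*Hpgd* (chromosome 8, 56294552 to 56321046, plus strand, a protein-coding gene) had 408 counts in control blastocysts, 36 in eKO and 22 in rLif, or 28.0, 2.44 and 1.47 TPM. The log2 ratio was -3.54 for eKO/control (interval -4.07 to -3.05) and -4.24 for rLif/control (interval -4.93 to -3.62). Between the blastocysts of eKO mothers with and without rLif it was -0.70, with an interval of -1.54 to 0.10 that included 0. The eKO and rLif blastocysts were both low and control stood alone. The level in control blastocysts was above that in each luminal library, where the highest was 10.0 TPM.

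The receptor gene *Ptger3*, which encodes the prostaglandin E receptor EP3, was also high in control blastocysts alone. It had 521, 6 and 11 counts in blastocysts of control, eKO and rLif, a log2 ratio of -6.48 for eKO/control (interval -7.93 to -5.34) and -5.59 for rLif/control. In the luminal libraries it had 59, 110 and 54 counts. Markers of other cell types were also present in these libraries. The immune list summed to 67.5, 128 and 22.8 CPM in control, eKO and rLif blastocysts, and all 7 of its genes in the tables had counts. Of these 7, 3 were below control in both the eKO and the rLif library. The stromal list summed to 166, 175 and 165 CPM, most of it *Pdgfra*. Without *Pdgfra* it summed to 42.6, 29.0 and 24.7 CPM, and 7 of the 9 stromal genes were below control in both other libraries. Among them *Col1a2* had 53, 11 and 10 counts, *Dcn* 164, 84 and 51, and *Hand2* 7, 0 and 2. These genes were thus lower in the same libraries as *Hpgd* and *Ptger3*. Of the 8 luminal epithelium genes, 3 were below control in both, among them *Krt19* with 1401, 241 and 108 counts, and *Wnt7a* was at 0 throughout. The primitive endoderm list summed to 315, 270 and 230 CPM. *Cubn* in it had 1587, 469 and 337 counts, and the other 3 genes summed to 232, 246 and 212 CPM. The part of these cells in the *Hpgd* and *Ptger3* ratios was not tested.

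**Figure D4:**
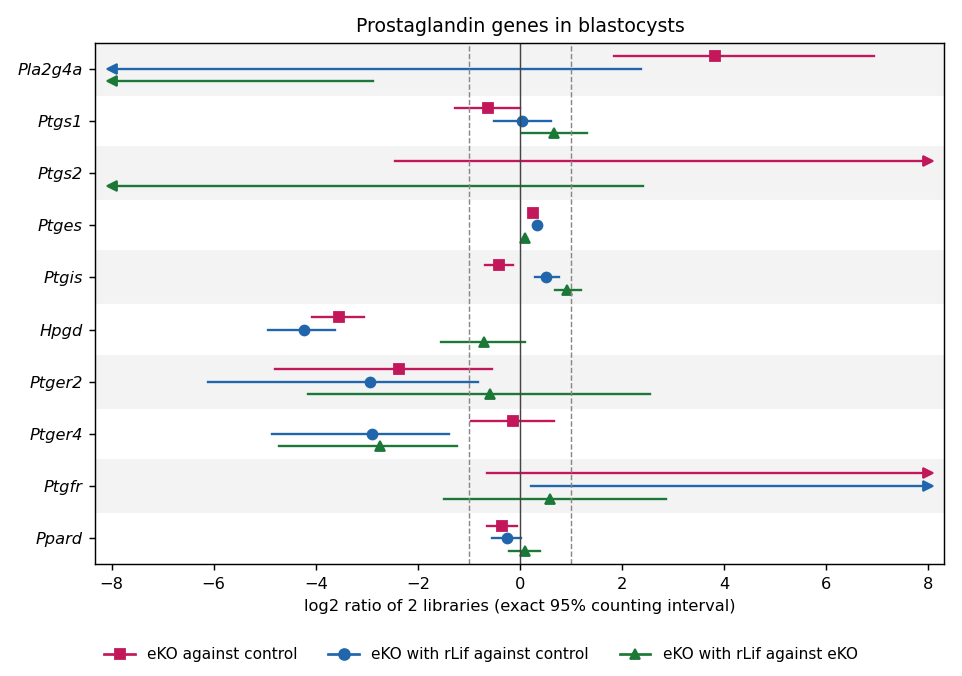
log2 ratios of the members between blastocyst libraries, with exact 95% counting intervals (lines) for the 3 comparisons. Dashed lines mark log2 ratios of 1 and -1, and arrows mark intervals open towards a library with 0 counts. *Hpgd* lay at -3.54 and -4.24 against control, whereas *Ptges* and *Ppard* stayed near 0 with short intervals.

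The synthase and nuclear receptor members were not called in any blastocyst comparison. *Ptges* (chromosome 2, 30889471 to 30903297, minus strand, protein coding) had 11247, 13676 and 14545 counts in control, eKO and rLif blastocysts, or 364, 436 and 459 TPM. Its log2 ratios were 0.25 for eKO/control (interval 0.21 to 0.28) and 0.34 for rLif/control (interval 0.31 to 0.38). *Ptgis* (chromosome 2, 167203196 to 167240537, minus strand, protein coding) had 255, 197 and 374 counts and was highest after rLif, with a log2 ratio of 0.93 (rLif/eKO, interval 0.68 to 1.19, not called). *Ppard* (chromosome 17, 28232754 to 28301469, plus strand, a protein-coding gene) had 217, 174 and 185 counts and ratios of -0.35, -0.26 and 0.10. The level of *Ptges* per length was 21.2, 33.3 and 18.7 times that of *Ptgis* in the 3 libraries, against 2.68, 1.98 and 2.67 times in the luminal layer.

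The other blastocyst calls rested on few reads. *Pla2g4a* had 2, 29 and 0 counts in control, eKO and rLif blastocysts, a log2 ratio of 3.82 for eKO/control (interval 1.84 to 6.93). It was at least 9.61-fold lower in rLif than in eKO by the floor of 3 counts. *Ptger4* had 29, 27 and 4 counts, with log2 ratios of -2.89 for rLif/control (interval -4.86 to -1.38) and -2.75 against eKO. *Ptger2* had 15, 3 and 2 counts, and its ratios to control were not called (intervals -4.79 to -0.54 and -6.11 to -0.83). *Ptgs1* had 54, 36 and 57 counts and *Ptgfr* 0, 4 and 6, and neither was called. All of these levels were at most 2.29 TPM, and *Ptger2*, *Ptger4*, *Pla2g4a* and *Ptgs1* were among the abundant members in the luminal layer. Uterine markers differed between the blastocyst libraries too. *Wnt7a* had 0 counts in each, whereas the stromal gene *Col3a1* had 122, 60 and 28, and the immune genes *Lyz2* and *C1qb* had 976, 2128 and 289 and 100, 163 and 25. The part of such RNA in these calls was not tested. Under edgeR's exact test as above, the calls of *Hpgd* and that of *Pla2g4a* for rLif/eKO were kept, and those of *Ptger4* and of *Pla2g4a* for eKO/control were lost. Of the other pathway genes, 31 had enough counts in blastocysts, and 1 of them was called in each comparison. Over all genes 3.15%, 4.94% and 3.75% were called for eKO/control, rLif/control and rLif/eKO. The pathway gene was *Ptger3* in both comparisons with control and *Pla2g4d* for rLif/eKO. *Pla2g4d* had 7, 0 and 12 counts and, by the floor of 3 counts, was at least 4.02-fold higher in rLif than in eKO.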

How the data were processed

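Reads were made from SMART-seq v4 low-input libraries of laser-microdissected luminal layers and of pooled blastocysts. Per the labels and the study's methods, the authors aligned paired-end reads to GRCm38/mm10 with HISAT2 and deposited read counts per gene from featureCounts (Subread 2.0.0), 1 table per tissue, without normalization. The methods name the output RPKM, but every value was whole and the column sums differed. Which annotation release, strand setting and treatment of multi-mapping reads were used is not given in the sources used here. The deposited tables also gave summed exon length. No sample columns were left out.

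Groups came from the sample labels. Genes reaching a sum of 10 counts within a tissue (15694 luminal, 14873 blastocyst) were analysed, with TMM-scaled library sizes from edgeR 4.0.16 in R 4.3.3. CPM used these sizes. The tissue comparison scaled all 6 libraries together (17081 genes). Intervals of ratios are exact Clopper-Pearson intervals at 95%, computed with scipy 1.17.1, and cover counting error only. One count corresponded to 0.0348 to 0.0525 CPM. The study's limits (edgeR, log2 fold change over 1, FDR below 0.05) were tried as an alternative with an assumed dispersion of 0.1, since 1 library a group gives no estimate. Other alternatives were DESeq2 1.42.0 size factors, total counts, minimums of 0 and 50 counts, log2 limits of 0 and 2, CPM in place of TPM, and TMM over the 2 libraries compared (added after seeing the data, as was a longer promoter window). The interval rule was tested on simulated counts. These were Poisson counts, the model that the interval assumes, without spread between animals. They checked the calculation only. Promoter windows and starts are from RefSeq (GRCm38.p6), gene types from GENCODE M21, and gene positions from the deposited tables. All 10 members are named, and other pathway genes where they were called in a comparison of a tissue. *Pla2g12a*, *Ptges2* and *Ptges3*, which were not called within a tissue, and the genes of the last section are named besides. The members and lists were chosen with earlier results of these data known. Of the marker lists, *Cxcl15* and *Adgre1*, and of the pathway list *Ptgdr2*, were not matched.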

Additional observations from a re-analysis of the deposited data

Results flagged for a closer look

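At the TMM-scaled library sizes, 5 members had ratios in opposite directions in the luminal layer and in blastocysts under the same comparison. Both 95% counting intervals were wholly off 0, a looser rule than that of a call. No share of all genes meeting this rule is given, so the number cannot be set against all genes. Each direction rests on 1 library a group, and the differences between the tissues were not tested. For eKO/control, the log2 ratio of *Hpgd* was 0.63 between the luminal libraries so labelled and -3.54 in blastocysts, and that of *Ptgis* was 0.64 and -0.41. For rLif/control, *Ptger2* had 0.17 in the luminal layer and -2.93 in blastocysts, the latter from 2 against 15 counts. With total counts in place of TMM scaling the luminal ratio was -0.01, so its direction depended on the scaling. *Ptgfr* was, by the floor of 3 counts, at least 8.25-fold lower in the luminal library and at least 1.96-fold higher in blastocysts. These came from 0 against 24 and 6 against 0 counts. For rLif/eKO, *Ptgs1* had -0.68 in the luminal layer and 0.67 in blastocysts.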

How the results depend on the processing

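Of 506 alternative values of single members, 465 kept their side of the limit, 18 lost a call and 23 gained one. A call in the opposite direction was seen in 0. A library at 0 counts was set to the floor of 3. Small ratios that were not called could change sign. With total counts, luminal rLif/control went from 0.17 to -0.01 for *Ptger2*, from 0.07 to -0.11 for *Ptges* and *Ptgis*, and from 0.01 to -0.17 for *Pla2g4a*. DESeq2 size factors, total counts, no minimum and scaling over the 2 libraries compared changed no member's call. With a log2 limit of 0 the members called in the luminal comparisons (eKO/control, rLif/control, rLif/eKO) numbered 8, 6 and 7, and in blastocysts 6, 6 and 5. With a limit of 2 they numbered 1, 1 and 2 in the luminal layer and 1 in each blastocyst comparison. The edgeR exact test with an assumed dispersion of 0.1 gave the same numbers, 1, 1 and 2 and then 1, 1 and 1. Shares of all genes are given for the interval rule at a limit of 1 only. The numbers at these other settings therefore cannot be set against all genes. It kept *Pla2g4a* and lost *Ptger2* for luminal eKO/control, kept both for rLif/eKO, kept *Hpgd* in both blastocyst comparisons with control, kept *Ptgfr* for luminal rLif/control and *Pla2g4a* for blastocyst rLif/eKO, and lost the other calls within a tissue. Between the tissues it lost *Hpgd* of the 10. A minimum of 50 counts left 1 blastocyst member for eKO/control and 1 for rLif/eKO, because *Pla2g4a* was no longer assessed. In the luminal layer it ended both *Ptgfr* calls in the same way, leaving 2 members for rLif/control and 3 for rLif/eKO. Without length, the *Ptgs2* to *Ptgs1* ratio was 0.0463, 0.108 and 0.217 in the control-, eKO- and rLif-labelled luminal libraries. With 50 bases after the start added, 2 members held TATAAA. Leaving out a library leaves a comparison with no group, and no paired analysis was possible because each group was 1 library.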

Other observations

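Some pathway genes differed between the tissues more than between the groups. They were chosen after their values were seen, and those that follow were higher in blastocysts. *Lpar3* and *Anxa1* were higher in the luminal layer, with 8033 and 6899 counts against 12 and 37 between the control-labelled libraries. Of the 38 listed genes assessed in that comparison, 9 were called higher and 11 lower in the luminal layer, against 27.0% and 25.1% of all genes. *Slco2a1*, which encodes the prostaglandin transporter, had 4125, 3449 and 2798 counts in blastocysts of control, eKO and rLif, against 33, 46 and 37 in the luminal libraries so labelled. *Pla2g4f*, a cytosolic phospholipase A2, had 107, 125 and 129 counts in blastocysts and *Rxrg*, a retinoid X receptor, 112, 123 and 120, whereas both had 0 counts in all 3 luminal libraries.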
